A study of Glycine max with 6 samples.

Results

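Broad loci are stretches of the soybean (Glycine max) genome, at least 1500 bp wide, at which the proteins GLYMA.06G314400 and GLYMA.13G317000 both gave peaks in every replicate of a chromatin immunoprecipitation with sequencing (ChIP-seq) experiment. The 213988 peaks of 4 lists were pooled, and peaks that shared 1 bp or more were joined into loci. Of 70952 loci, 34119 held a peak in all 4 lists, and 1097 of these were 1500 bp or wider. These 1097 broad loci made up 3.22% of the loci in all 4 lists and held 7.78% of their bases. The remaining 33022 loci in all 4 lists, all narrower than 1500 bp, are given beside them as the background. The loci were chosen by the presence and the merged width of the peaks themselves, so the values below describe them and no test was made on them. The 95% Wilson intervals given for some shares cover counting error only.

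All samples came from the cultivar Williams 82, grown in a greenhouse, and from embryos at the early maturation stage that were taken out of seeds 6 to 7 mm in size. Tissue was fixed with 1% formaldehyde and the chromatin sheared to pieces of 100 to 500 bp. GLYMA.06G314400 was precipitated with 3 µg of an antibody raised against residues 302 to 316 of the protein, and GLYMA.13G317000 with 2 µg of an antibody raised against its residues 1 to 15. Each protein had 2 biological replicates, and 2 input samples of unprecipitated chromatin had no peak list of their own. The labels do not say how many embryos or plants made up a sample.

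Early maturation is the stage at which a legume embryo turns from building its organs to filling its cells with storage protein and oil. ChIP-seq maps where a protein sits on DNA in such cells, and a peak caller reports each enriched stretch as 1 interval with 1 summit, the base with the most recovered fragments. A wide interval can hold a single site with long flanks or several sites whose fragments run into each other, and the number of summits per list shows where a list resolved more than 1. No source used here names the genome build. Genes and DNA sequence at these loci are therefore not analysed here, and coordinates are those of the deposited lists.

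The 4 lists drew the same broad loci in different ways. Replicate 1 of GLYMA.06G314400 covered most loci with 1 long peak, whereas each of the other lists usually broke the same stretch into 2 or more peaks. Replicate 1 of GLYMA.06G314400 had 1 peak in 1054 of the 1097 loci and 2 peaks in 43 (3.92%, against 0.404% of all loci in all 4 lists). Replicate 2 of GLYMA.06G314400 had 2 or more peaks in 611 loci (55.7%, interval 52.7% to 58.6%, against 4.36% of all loci in all 4 lists). Replicate 1 of GLYMA.13G317000 had 2 or more in 659 loci (60.1%, interval 57.1% to 62.9%, against 4.86%). Replicate 2 of GLYMA.13G317000 had 2 or more in 722 loci (65.8%, interval 63.0% to 68.6%, against 4.87%).

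**Figure D1:**
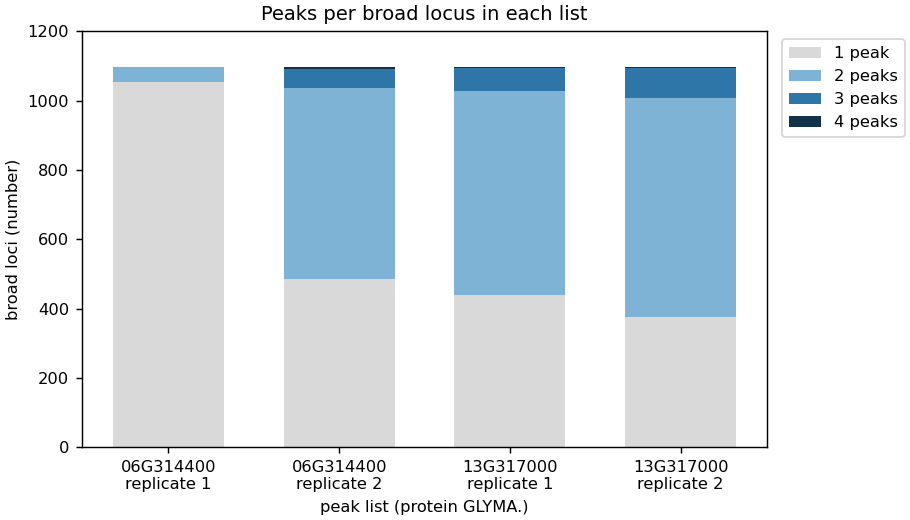
Number of broad loci (vertical axis, 1097 in each bar) with 1, 2, 3 or 4 peaks of each list (horizontal axis). The bar of GLYMA.06G314400 replicate 1 is almost wholly loci with 1 peak (1054), while the others have 486, 438 and 375 such loci.

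No list had more than 4 peaks in a broad locus. Loci with 3 peaks numbered 56 in replicate 2 of GLYMA.06G314400, and 65 and 85 in replicates 1 and 2 of GLYMA.13G317000. Loci with 4 peaks numbered 6, 4 and 4 in the same order. Summed over the loci, replicates 1 and 2 of GLYMA.06G314400 had 1140 and 1776 peaks, or 1.04 and 1.62 per locus. Those of GLYMA.13G317000 had 1829 and 1912 peaks, or 1.67 and 1.74 per locus. A broad locus held on average 1.33 ± 0.410 peaks of GLYMA.06G314400 and 1.71 ± 0.0535 of GLYMA.13G317000 (SD, n = 2 each), a difference smaller than the spread between the replicates of GLYMA.06G314400. No list held overlapping peaks, so the number of summits equals the number of peaks in each list.

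Over all lists, 917 broad loci (83.6%, interval 81.3% to 85.7%) had 2 or more peaks in at least 1 list, against 8.17% of all loci in all 4 lists. The most frequent arrangement was 1 peak in replicate 1 of GLYMA.06G314400 and 2 in each of the 3 other lists, found at 296 loci (27.0%). Allowing more than 2 peaks in the 3 other lists, 389 loci (35.5%) had this form, against 1.82% of all loci in all 4 lists. A single peak in every list was the second most frequent arrangement, with 180 loci (16.4%). A division into 2 or more peaks in both replicates of GLYMA.13G317000 occurred at 509 loci (46.4%, against 2.64%), and in both replicates of GLYMA.06G314400 at 29 (2.64%, against 0.202%). A wider locus has more room for separate peaks, so nothing is read from these shares against the background, which the rule on width touches.

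The width of the set rested on 1 library. Replicate 1 of GLYMA.06G314400 had a single peak of 1500 bp or more in 986 of the 1097 loci (89.9%), replicate 2 in 234 (21.3%), and replicates 1 and 2 of GLYMA.13G317000 in 201 (18.3%) and 38 (3.46%). Its peaks set both outer ends of 686 loci (62.5%), where the next list, replicate 2 of GLYMA.06G314400, set both ends of 11. They also set both ends of 58.9% of the other loci in all 4 lists, so this was not particular to broad loci. The median share of a locus covered by peaks was 100.0% in replicate 1 of GLYMA.06G314400, 81.4% in replicate 2, and 79.6% and 56.7% in replicates 1 and 2 of GLYMA.13G317000. The other loci in all 4 lists had similar medians, of 100%, 80.4%, 79.2% and 59.7% in the same order. Without the peaks of GLYMA.06G314400 replicate 1, 366 of the 1097 loci (33.4%) still reached 1500 bp, and 551 (50.2%) fell apart into 2 or more separate intervals. At 377 loci (34.4%), 2 or more of these intervals held peaks of all 3 other lists. Leaving out the peaks of any other single list split 4 to 22 loci, and 1053 to 1090 kept a width of 1500 bp.

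Peaks of replicate 1 of GLYMA.06G314400 were also wider than those of the other lists at the same height over the whole genome. Fold enrichment is the deposited ratio of the fragments at a summit to the local background. Among peaks with a fold enrichment from 5 to under 6, the median width was 465 bp in that list, 359 bp in replicate 2, and 398 and 359 bp in replicates 1 and 2 of GLYMA.13G317000. From 20 to under 24, the medians were 880, 665.5, 722 and 650 bp in the same order. The −log10 p deposited with the peaks of that last band had medians of 245 in replicate 1 of GLYMA.06G314400, 138 in replicate 2, and 213 and 189 in replicates 1 and 2 of GLYMA.13G317000. A larger −log10 p at the same fold generally goes with more fragments under the peak, but the depths are unknown, and their part in the widths was not tested.

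Most broad loci were only a little wider than the limit. The median width was 1729 bp (quartiles 1589 and 1987 bp), 583 loci were under 1750 bp and 16 were 3000 bp or wider. The other loci in all 4 lists had a median width of 682 bp. The narrowest members, of 1500, 1500 and 1501 bp, began at 5653411 on chromosome 2, at 25022261 on chromosome 9 and at 3362731 on chromosome 7. Just under the limit lay loci of 1499, 1499 and 1498 bp, which began at 168411 on chromosome 3, at 569859 on chromosome 7 and at 47673458 on chromosome 2. These members held 7, 4 and 6 peaks over all lists, and the excluded loci 5, 4 and 4.

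To see which summits recurred, summits within 100 bp of the next were grouped into positions. The 1097 loci held 2378 positions. A single position was found at 155 loci (14.1%), 2 at 656 (59.8%), 3 at 242 (22.1%), 4 at 35 and 5 at 9. Loci with 2 or more positions made up 85.9% of the broad loci, against 12.4% of all loci in all 4 lists. Of the positions, 999 (42.0%) held a summit of all 4 lists, and 378 (15.9%) held one of each list except GLYMA.06G314400 replicate 1, the list with 1 summit in most loci. Both proteins had a summit at 1666 positions (70.1%), and 538 loci (49.0%, against 3.74% of all loci in all 4 lists) had 2 or more such positions. GLYMA.13G317000 alone had 545 positions, of which 130 recurred in both its replicates, and GLYMA.06G314400 alone had 167, of which 21 recurred. Summits at positions of 1 protein alone had median fold enrichments of 5.23 for GLYMA.13G317000 and 4.89 for GLYMA.06G314400. These medians pool both replicates, whose fold enrichments are set within each list. Of the 545 positions, 262 were of GLYMA.13G317000 replicate 2 only. As a second summit cannot be listed inside a long peak, a position missing from a list is not evidence of missing binding there.

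Pairs of positions side by side were counted with the summits of GLYMA.06G314400 replicate 1 set aside, while its long peaks still helped to define the loci. By the 3 other lists, 326 loci had 2 positions at which all 3 had a summit and 9 loci had 3, together 335 loci (30.5%, interval 27.9% to 33.3%, against 1.64% of all loci in all 4 lists). That such pairs lie in 1 locus rested on the long peaks: without the peaks of GLYMA.06G314400 replicate 1, 329 of the 335 loci fell apart and 27 kept a width of 1500 bp. Of the 366 broad loci found from the 3 other lists alone, 0.820% held 2 or more positions common to all 3. With all 4 lists required, 9 loci (0.820%, against 0.0498%) had 2 such positions. Neighbouring positions of the 3 lists lay a median of 918 bp apart over 344 pairs, with quartiles of 807 and 1105 bp and a range from 502 to 2229 bp. The width limit favours far neighbours, and peaks that are close are called as 1, so the shortest distances are set by the method.

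**Figure D2:**
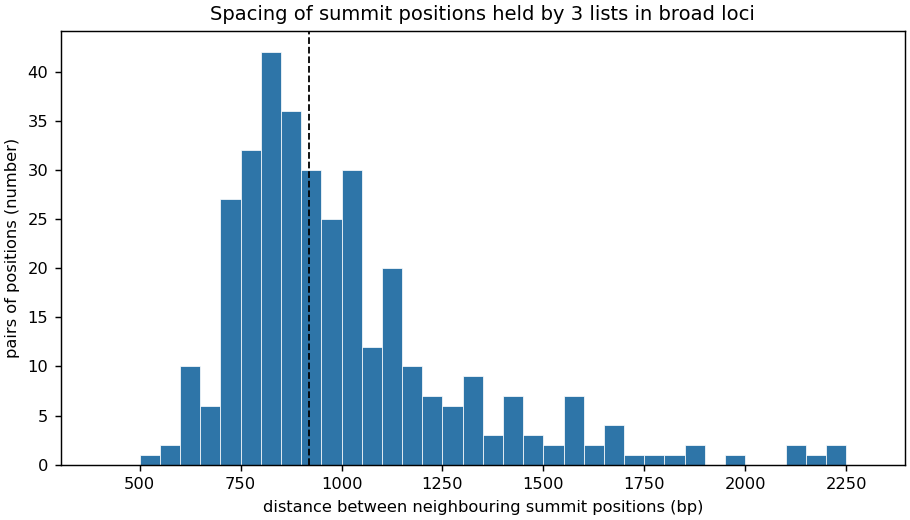
Distances in bp (horizontal axis) between neighbouring summit positions held by the 3 lists other than GLYMA.06G314400 replicate 1, as the number of pairs (vertical axis, 344 pairs in bins of 50 bp). The dashed line is the median, 918 bp, and no pair lies closer than 502 bp.

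At most of the 326 loci with 2 such positions, the 3 lists ordered the positions alike. GLYMA.06G314400 is represented in this comparison by replicate 2 alone. The same position was the stronger in all 3 lists at 261 loci (80.1%). Replicates 1 and 2 of GLYMA.13G317000 had the same stronger position at 283 loci (86.8%). Replicate 2 of GLYMA.06G314400 shared its stronger position with replicate 1 of GLYMA.13G317000 at 278 (85.3%) and with replicate 2 at 287 (88.0%), so lists of different proteins matched as often as replicates to within 2 percentage points. The log2 ratio of the fold enrichments at both positions had a Spearman rho of 0.908 between the replicates of GLYMA.13G317000, and of 0.875 and 0.921 between the proteins, over 326 loci, which are not independent and may share an input control. The positions were often unequal. In replicate 2 of GLYMA.06G314400 the stronger had at least 2 times the fold enrichment of the weaker at 148 loci (45.4%), and in replicates 1 and 2 of GLYMA.13G317000 at 142 (43.6%) and 131 (40.2%). At the 261 loci with a common stronger position, the leading summit of GLYMA.06G314400 replicate 1 lay at the stronger one at 245 (93.9%) and at the weaker one at 13.

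Within single lists, the second highest peak of a divided locus had a median of 26.5% to 58.0% of the fold enrichment of the leading peak. In the 43 loci divided in replicate 1 of GLYMA.06G314400 it had a median fold enrichment of 4.37, which was 26.5% of that of the leading peak. The median was 7.96 in replicate 2 of GLYMA.06G314400, which was 44.4% of that of the leading peak over 611 loci. In replicates 1 and 2 of GLYMA.13G317000 it was 6.60 and 5.43, or 47.7% and 58.0% of the leading peak. In the other loci in all 4 lists the second peak was nearer in height to the first, at 46.6% and 50.7% of it in replicates 1 and 2 of GLYMA.06G314400 and at 51.6% and 63.1% in those of GLYMA.13G317000. Both peaks were lower there, and the second had median fold enrichments of 3.43, 4.77, 3.94 and 3.96 in the same order. The gaps between such peaks of broad loci were short, with medians of 212, 219 and 328 bp in GLYMA.06G314400 replicate 2 and in GLYMA.13G317000 replicates 1 and 2, while the leading and the second summit lay a median of 927, 909 and 866.5 bp apart. Leading summits sat off centre: a median of 28.4% to 29.0% of the locus width separated them from the nearer end, against 43.8% to 44.5% in the other loci in all 4 lists. A locus that joins peaks side by side tends to have the highest of them off centre, so nothing is read from this difference.

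The leading summit, that of the highest peak of a list in a locus, was mostly the same in all lists. All 4 leading summits lay within 100 bp of each other at 845 broad loci (77.0%, interval 74.4% to 79.4%, against 87.6% of all loci in all 4 lists). Between the replicates of GLYMA.06G314400 the leading summits lay within 100 bp at 92.0% of broad loci, and between those of GLYMA.13G317000 at 87.0%. Between the proteins this share was 88.1% in replicate 1 and 86.5% in replicate 2, and 86.1% and 87.2% between lists with different replicate numbers. The median distance was 15 to 18 bp for all 6 pairs of lists. Leading summits over 500 bp apart occurred at 6.20% of loci between the replicates of GLYMA.06G314400, at 9.66% between those of GLYMA.13G317000 and at 9.48% to 10.03% between lists of different proteins. In the other loci in all 4 lists, the pairs of lists had 93.9% to 96.4% within 100 bp and 0.351% to 0.669% over 500 bp. Those loci had a median width of 682 bp and so little room for such distances, and nothing is read from the difference.

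Where 1 list alone differed, it was most often replicate 2 of GLYMA.13G317000, at 57 loci (5.20%, against 1.62% of all loci in all 4 lists). Replicate 1 of GLYMA.13G317000 stood alone at 42 (3.83%, against 0.791%), and replicates 1 and 2 of GLYMA.06G314400 at 27 (2.46%, against 0.7%) and 25 (2.28%, against 0.788%). At 34 loci (3.10%, against 1.07%), the replicates of each protein kept together while the proteins lay over 100 bp apart in both replicate numbers. The other ways of splitting the lists in pairs gave 14 loci when lists of the same replicate number kept together (1.28%, against 0.366%) and 10 when lists of different numbers did (0.912%, against 0.223%).

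The 4 of these loci with the largest distance separated the leads of the proteins by more than 1000 bp, and at 3 of the 4 both proteins had summits at both sites. At the locus on chromosome 14 (48762748 to 48765078), 2331 bp wide, GLYMA.06G314400 led 1938 and 1945 bp from the start in replicates 1 and 2, with fold enrichments of 27.6 and 27.1. GLYMA.13G317000 led 392 and 352 bp from the start, with 23.4 and 16.4. Each protein also had a summit near the site of the other in at least 1 list: GLYMA.06G314400 replicate 2 had 26.0 at 369 bp, and GLYMA.13G317000 had 17.8 at 1933 bp and 13.3 at 1948 bp. The order of both sites thus differed between the proteins by little more than 1 unit of fold in GLYMA.06G314400 replicate 2.

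On chromosome 2 (15825516 to 15827276), the difference was larger for GLYMA.13G317000 than for GLYMA.06G314400. GLYMA.06G314400 replicate 2 had 13.8 at 376 bp and 12.5 at 1541 bp, and its replicate 1 had a single peak with 11.9 at 398 bp. GLYMA.13G317000 had 5.67 at 368 bp and 11.1 at 1477 bp in replicate 1, and 3.30 at 385 bp and 8.51 at 1495 bp in replicate 2. At the locus on chromosome 13 (22014866 to 22017092), GLYMA.06G314400 was higher at the second site by a small margin. It had 19.6 at 318 bp and 22.5 at 1550 bp in replicate 1, and 19.1 at 322 bp and 19.5 at 1551 bp in replicate 2. GLYMA.13G317000 was higher at the first site, also by a small margin in replicate 1. It had 16.4 at 321 bp and 13.7 at 1544 bp in replicate 1, and 10.2 at 340 bp and 7.59 at 1585 bp in replicate 2. On chromosome 8 (5453531 to 5455716) every list had 1 peak, with summits at 700 and 697 bp for GLYMA.06G314400 (23.3 and 33.7) and at 1779 and 1787 bp for GLYMA.13G317000 (26.9 and 19.4).

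The widest loci differed in which list had the long peaks. The widest of all, on chromosome 13 (38843375 to 38848399, 5025 bp wide), was wide through GLYMA.13G317000 and low in every list. GLYMA.13G317000 replicate 2 covered it with 1 peak of 5015 bp (5.02), and replicate 1 with peaks of 3194 bp (3.37) and 1687 bp (5.67). GLYMA.06G314400 had 1 peak of 509 bp (3.67) in replicate 1 and 1 of 434 bp (3.67) in replicate 2, both near the far end.

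The next 4 were all spanned by 1 peak of GLYMA.06G314400 replicate 1. The locus on chromosome 8 (2703023 to 2707232, 4210 bp wide) reached 38.6 at 1930 bp in replicate 1 of GLYMA.06G314400 and 61.6 at 1915 bp in its replicate 2. GLYMA.13G317000 replicate 2 had peaks of 17.2 at 833 bp, 29.7 at 1934 bp and 5.24 at 3355 bp, and replicate 1 had 40.8 at 829 bp, 5.31 at 3366 bp and 3.39 at 4008 bp. The first peak of GLYMA.13G317000 replicate 1 was 2658 bp wide and covered the site at 1934 bp, so its leading summit lay 1101 bp from that of GLYMA.06G314400 replicate 1, while the distance in replicate 2 was 19 bp.

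The locus on chromosome 2 (2798489 to 2802541, 4053 bp wide) led at 2055 to 2095 bp in all lists, with 20.9 and 18.7 for GLYMA.06G314400 and 17.2 and 11.8 for GLYMA.13G317000. On chromosome 20 (36893834 to 36897788, 3955 bp wide) the lead lay at 3368 to 3386 bp, with 22.9 and 27.1 for GLYMA.06G314400 and 21.6 and 14.0 for GLYMA.13G317000, and 3 positions were held by the 3 lists other than GLYMA.06G314400 replicate 1. The locus on chromosome 10 (40646901 to 40650674, 3774 bp wide) led near its start, at 519 to 527 bp, with 22.8 and 25.7 for GLYMA.06G314400 and 17.4 and 11.7 for GLYMA.13G317000. The last 2 loci had 11 peaks each over all lists and 4 and 5 summit positions.

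**Figure D3:**
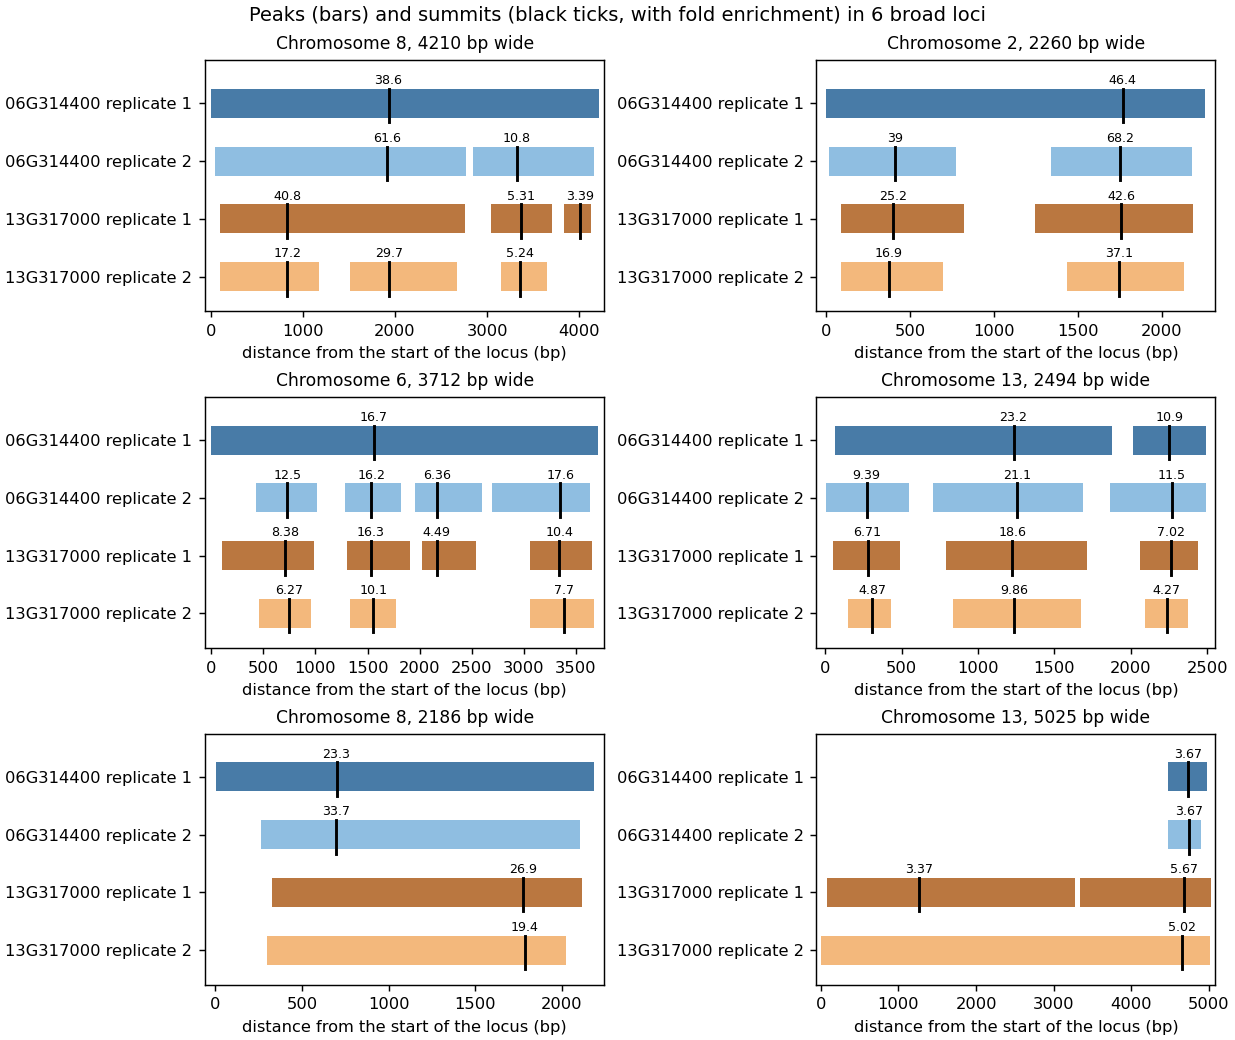
Peaks (bars) and summits (black ticks, labelled with the deposited fold enrichment) of the 4 lists in 6 broad loci, against the distance in bp from the start of the locus. The top 2 rows show loci in which GLYMA.06G314400 replicate 1 has long peaks and the other lists have 2 to 4. At bottom left (chromosome 8, 2186 bp) the proteins lead at different sites, and at bottom right (chromosome 13, 5025 bp) the long peaks are those of GLYMA.13G317000.

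Loci with the most peaks held rows of 3 or 4 summits in the lists other than GLYMA.06G314400 replicate 1, most of them at matching places. The locus on chromosome 14 (7196670 to 7199366) had 13 peaks, 1 in GLYMA.06G314400 replicate 1 and 4 in each other list. In GLYMA.06G314400 replicate 2 these had fold enrichments of 4.26, 16.8, 8.11 and 8.95 at 223, 1066, 1754 and 2479 bp. In GLYMA.13G317000 replicate 1 they had 3.00, 8.25, 7.81 and 6.02 at 329, 1152, 1762 and 2471 bp, and in replicate 2 3.49, 6.10, 6.29 and 3.29 at 227, 1058, 1774 and 2491 bp. The locus counted 5 positions, because the first summit of GLYMA.13G317000 replicate 1, at 329 bp, lay more than 100 bp from those at 223 and 227 bp. The middle sites were near equal for GLYMA.13G317000, whereas the one at 1066 bp was clearly the highest for GLYMA.06G314400 replicate 2.

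On chromosome 6 (21482474 to 21486185, 3712 bp wide), 12 peaks marked 4 sites. GLYMA.06G314400 replicate 2 had 12.5, 16.2, 6.36 and 17.6 at 728, 1536, 2168 and 3350 bp, and GLYMA.13G317000 replicate 1 had 8.38, 16.3, 4.49 and 10.4 at 712, 1533, 2162 and 3342 bp. GLYMA.13G317000 replicate 2 lacked a peak at the site near 2162 bp and had 6.27, 10.1 and 7.70 at the others. On chromosome 8 (7127176 to 7129537, 2362 bp wide), 12 peaks were weak throughout, from 3.05 to 7.92, and GLYMA.06G314400 replicate 1 covered the whole stretch with a fold enrichment of 4.54.

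The 9 loci with 2 positions in all 4 lists are those in which GLYMA.06G314400 replicate 1 was itself divided at matching places. The widest of them, on chromosome 9 (42104405 to 42106966, 2562 bp wide), had summits at 547 to 580 bp and at 2243 to 2296 bp in every list. GLYMA.06G314400 had 42.3 and 15.5 at these sites in replicate 1 and 32.0 and 14.6 in replicate 2, and GLYMA.13G317000 had 42.5 and 12.3 in replicate 1 and 16.3 and 7.49 in replicate 2. The first site was the higher in all 4 lists. On chromosome 13 (40638464 to 40640957, 2494 bp wide) the middle of 3 sites led in all lists, with 23.2 and 21.1 for GLYMA.06G314400 and 18.6 and 9.86 for GLYMA.13G317000.

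On chromosome 8 (41146966 to 41149228, 2263 bp wide) the sites differed by small margins, and the lead changed with the list. GLYMA.06G314400 had 16.9 and 18.0 in replicate 1 and 23.6 and 22.8 in replicate 2. GLYMA.13G317000 had 10.4 and 11.8 in replicate 1 and 9.11 and 7.69 in replicate 2. The fourth of these loci is the one on chromosome 13 from 22014866 described above. On chromosome 15 (1985871 to 1987866, 1996 bp wide) the sites were far from equal, with 27.1 and 2.90 and with 41.8 and 4.48 for GLYMA.06G314400, and with 25.8 and 3.91 and with 21.2 and 5.75 for GLYMA.13G317000.

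In every list, the leading peaks of broad loci were higher at the median than those of the other loci in all 4 lists. For GLYMA.06G314400 the median fold enrichment of the leading peak was 21.2 in replicate 1 and 24.1 in replicate 2, against 10.00 and 10.4 in the other loci in all 4 lists. For GLYMA.13G317000 the medians were 16.3 and 11.7, against 8.24 and 5.79. Among all peaks of its own list, the leading peak of a broad locus stood at a median percentile of 87.4 to 91.6. Leading peaks of the other loci in all 4 lists stood at 55.0 to 70.9. Over the whole genome, higher peaks were also wider at the median in every list. The set was chosen by width, so nothing is read from these differences. The groups overlapped widely: leading peaks of broad loci ranged from 3.67 to 47.4 in replicate 1 of GLYMA.06G314400, and those of the other loci from 1.59 to 48.4. These values are the authors' ratios, set within each list, and a difference in height between lists is not read as a difference in binding.

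**Figure D4:**
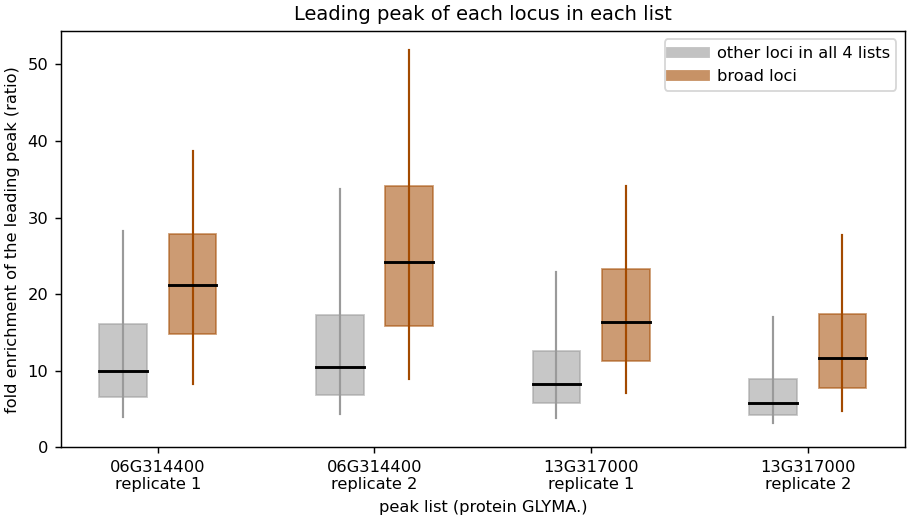
Deposited fold enrichment (ratio, vertical axis) of the leading peak per locus in each list (horizontal axis), for broad loci and for the other loci in all 4 lists. Boxes span the quartiles, black lines are medians, and thin lines run from the 5th to the 95th percentile. The medians of broad loci (21.2, 24.1, 16.3 and 11.7) lie above those of the other loci (10.00, 10.4, 8.24 and 5.79), and the ranges overlap.

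When all loci in all 4 lists were ordered by the lowest of their 4 leading fold enrichments and cut into 10 groups of like size, 0.0879% of the weakest group and 12.7% of the strongest were broad. This lowest value was that of GLYMA.13G317000 replicate 2 at 983 broad loci (89.6%), so the order of the broad loci mostly follows that list. The same share was not counted for the other loci. The strongest group held 433 broad loci, or 39.5% of the set, and the weakest 3. Width and strength rose together, as they did for single peaks over the whole genome. They were far from the same, since 2978 of 3411 loci in the strongest group were narrower than 1500 bp. Within the set, the median of the lowest fold enrichment was 10.8 in loci of 1500 to 1749 bp and 15.1 in loci of 2500 bp or more. The mean number of summit positions was 1.96 in the former and 3.00 in the latter. Broad loci with 1 position were stronger than those with more, with a median leading fold enrichment of 26.8 against 20.5 in GLYMA.06G314400 replicate 1 and 16.2 against 11.2 in GLYMA.13G317000 replicate 2, and slightly narrower, with median widths of 1625 and 1750 bp.

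The strongest broad loci included a locus with 1 summit position and loci with more. The locus with the highest minimum over the lists, on chromosome 18 (2682999 to 2684605, 1607 bp wide), had 1 peak in each list and 1 position at 565 to 588 bp, with fold enrichments of 44.4 and 66.9 for GLYMA.06G314400 and 44.5 and 44.6 for GLYMA.13G317000. On chromosome 17 (12027704 to 12029961, 2258 bp wide) the main summit lay at 1035 to 1093 bp, with 42.6 and 64.2 for GLYMA.06G314400 and 46.3 and 40.6 for GLYMA.13G317000. GLYMA.06G314400 replicate 1 had 1 peak of 2207 bp there, and a small second peak near the start had 3.71 in GLYMA.06G314400 replicate 2 and 3.63 in GLYMA.13G317000 replicate 1.

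The next 3 were pairs of strong sites. On chromosome 2 (36214464 to 36216723, 2260 bp wide) GLYMA.06G314400 replicate 2 had 39.0 at 410 bp and 68.2 at 1754 bp, and GLYMA.13G317000 had 25.2 and 42.6 in replicate 1 and 16.9 and 37.1 in replicate 2 at the same sites. On chromosome 4 (46558405 to 46561231, 2827 bp wide) GLYMA.06G314400 replicate 2 had 29.4 and 69.7, and GLYMA.13G317000 had 14.9 and 36.5 in replicate 1 and 14.5 and 38.6 in replicate 2. On chromosome 16 (13048532 to 13051335, 2804 bp wide) GLYMA.06G314400 replicate 2 had 42.6 at 511 bp and 64.7 at 2126 bp. There GLYMA.13G317000 had 36.2 and 36.6 in replicate 1, nearly equal, and 28.0 and 46.8 in replicate 2. At all 3 loci the second site was the higher in each of these lists, and GLYMA.06G314400 replicate 1 joined both sites in 1 peak with 46.4, 39.6 and 34.9.

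Broad loci lay on all 20 chromosomes, with 3 more on unplaced scaffolds. Their number per chromosome ran from 33 on chromosome 16 to 79 on chromosomes 6 and 17, with a mean density of 1.17 ± 0.349 per Mb (SD over 20 chromosomes, lengths taken to the end of the last peak). As a share of the loci in all 4 lists they made up 3.21% ± 0.512 (SD over 20 chromosomes), from 2.35% on chromosome 15 to 4.16% on chromosome 17. Stretches of 20% of a chromosome's length at either end held 802 of 1094 broad loci (73.3%, interval 70.6% to 75.8%), against 68.4% of all loci in all 4 lists on the chromosomes. A neighbour in all 4 lists lay within 2000 bp of 454 of 1096 broad loci (41.4%, interval 38.5% to 44.4%), against 32.1%. The difference was not tested, since the way a locus is joined or left apart acts on both its width and its distance to the next.

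**Figure D5:**
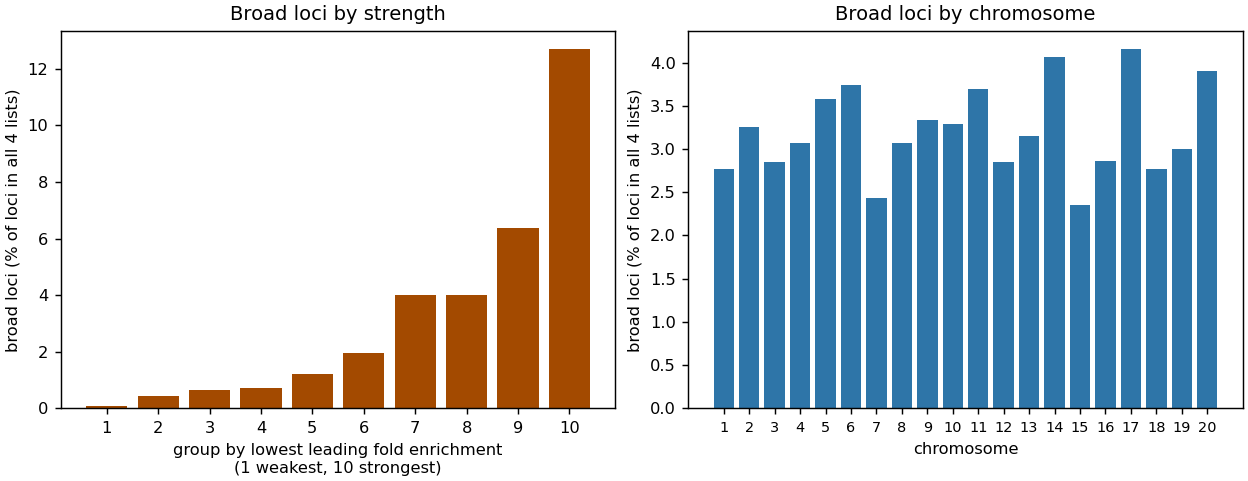
Broad loci in percent of the loci in all 4 lists (vertical axes), at left in 10 groups of like size by the lowest of the 4 leading fold enrichments, at right by chromosome. The share runs from 0.0879% in the weakest group to 12.7% in the strongest, and from 2.35% on chromosome 15 to 4.16% on chromosome 17.

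The median distance between neighbouring broad loci was 291189 bp. Of the 1075 pairs of neighbouring members, 51 lay within 10000 bp and 20 within 2000 bp. The closest pair, on chromosome 8, had 182 bp between the end of one locus at 9021818 and the start of the next at 9022001. A pair on chromosome 14 had 257 bp between 46072541 and 46072799. These pairs were chosen after their values were seen, as the ones with the smallest gap.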

How the data were processed

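The data were 4 lists of peaks, 1 per precipitated sample, called on each replicate alone. The submitters' processing notes list the aligner Bowtie 0.12.7 and the peak caller MACS2. No source used here gives the genome build, the controls or the treatment of duplicate reads. The authors' files hold, for each peak, a deposited fold enrichment, which is the ratio of summit fragments to local background, a deposited −log10 p and −log10 q, a deposited score, which is 10 times −log10 q, and a summit. Read depth is unknown. The lowest −log10 q was 2.00 to 2.23, so every list ended near the same q.

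Peaks were merged into loci with Python 3.11.15, and all 70952 merged intervals were identical to those of bedtools 2.31.1. Wilson intervals came from scipy 1.17.1. Loci named in the text are the 5 widest, the 5 with most peaks, the 5 with most positions in all 4 lists (ties by width), the 5 with the highest lowest fold enrichment, the 4 with the proteins farthest apart, and 3 at either side of the width limit. The members and the lists of values were chosen with earlier results of these data known.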

Additional observations from a re-analysis of the deposited data

How the results depend on the processing

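The number of broad loci was 1097 as reported, 5598 with a limit of 1000 bp, 266 with 2000 bp and 704 when the span covered by 2 or more lists had to reach 1500 bp. Omitting a list and requiring the other 3 gave 366 (without GLYMA.06G314400 replicate 1) to 1099 loci. The share with 2 or more peaks in some list was 83.6%, and became 43.4% at 1000 bp, 92.1% at 2000 bp, 89.2% with the span of 2 lists, and 71.5% to 80.5% with a list omitted. With the reported loci held fixed and a list left out of the count alone it was 71.4% to 83.3%, the highest without GLYMA.06G314400 replicate 1, whose omission with loci found again gave 73.0%. With fixed loci this share cannot rise when a list is left out, by construction. The share with 2 or more positions in all lists (0.820%) was 0.304% at 1000 bp, 1.50% at 2000 bp, 1.14% with the span of 2 lists, 0.369% with peaks merged at 50 bp or more, 0.200% with a single peak of 1500 bp or more required, and 0.474% to 1.09% with a list omitted. The share with all leading summits within 100 bp (77.0%) was 82.0% at 1000 bp, 63.4% within 50 bp and 80.3% within 200 bp, both by construction, and 80.6% to 82.6% with a list omitted, against 80.3% to 83.0% with the reported loci held fixed. With fixed loci this share cannot fall when a list is left out, also by construction. It was 79.8% with a replicate block, in which the proteins were compared within each number. The labels give 2 pairs of numbers and do not say that a number marks a shared harvest, so the numbers are not taken as pairs. Of 50 alternative values, 28 stayed within counting error or within 1.5 times the count. Where no value explains a change, the cause was not tested. The positions in 3 lists, the splitting of members without a list and the fixed loci were chosen after the data were seen. Read depth is unknown, and its part in the division of loci in each list was not tested.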

Other observations

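Wide loci outside the set were rare. Of the loci of 1500 bp or more, 13 lacked a peak in at least 1 list, and 9 of these had peaks in every list except GLYMA.13G317000 replicate 2. Their highest fold enrichments ran from 3.98 to 13.1.

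A stretch of chromosome 13 around the widest broad locus, singled out after its values were seen, held more peaks of GLYMA.13G317000 than of GLYMA.06G314400. Within 25000 bp of that locus to either side, from 38818375 to 38873399, GLYMA.13G317000 had 23 and 20 peaks in replicates 1 and 2, which covered 17475 and 18574 bp. GLYMA.06G314400 had 8 and 7 peaks there, which covered 4553 and 3436 bp. The highest fold enrichments there were 8.97 and 8.89 for GLYMA.13G317000 and 9.48 and 12.8 for GLYMA.06G314400. Leading peaks of loci in all 4 lists under the width limit had medians of 8.24 and 5.79, and of 10.00 and 10.4, in the same order. The values of the stretch are maxima over all its peaks, so they are not a like measure to these medians. Besides the widest broad locus, 2 further loci over 1500 bp lay there, from 38829565 to 38831405 and from 38857976 to 38859690, both with peaks of GLYMA.13G317000 in both replicates and none of GLYMA.06G314400. The starts of these 3 wide loci were 13810 and 14601 bp apart. Whether repeated sequence lies there is not analysed here.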
